A study of Mus musculus with 8 samples.

Results

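The genes of the cytosolic ribosomal proteins were followed through 8 bulk RNA libraries of mouse lymphoid tissue inducer (LTi) cells. They were taken by symbol: Rpl or Rps with a number, plus Rpsa, Rplp0, Rplp1 and Rplp2. The rule found 86 of the 27179 genes in the table, 53 named for the large and 33 for the small subunit. Most deposited symbols are in capitals, so the rule was read in either case; letter for letter it would have found 4. The names were checked against RefSeq through the Entrez identifiers, which gave the same 86. Among them 84 are annotated as protein-coding and 2, Rpl6l and Rps4l, as pseudogenes. The genes lie on 19 chromosomes, with 14 on chromosome 7.

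LTi cells are innate lymphocytes that make lymphotoxin and help to build lymphoid tissue. They were sorted from Peyer's patches (PP) and from small intestinal lamina propria (LP) of C57BL/6 mice as lineage-negative CD127+ CCR6+ cells lacking KLRG1, NK1.1 and NKp46. Each site gave 2 libraries from Tcf7+/+ mice and 2 labelled Tcf7fl/fl-RorcCre, in which Cre is meant to delete the floxed Tcf7 gene (encoding the transcription factor TCF-1) in the lineage that has made Cre. The sources used here do not give the age or sex of the mice, or say whether replicates are separate mice or pools, so p-values measure only the spread between these libraries.

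A cytosolic ribosome is built from a large and a small subunit, each a core of ribosomal RNA dressed with many proteins that are needed in near-equal numbers. Their mRNAs are among the most abundant of a growing cell. Most begin with a C followed by a run of pyrimidines, the 5′ terminal oligopyrimidine (TOP) tract, through which mTORC1 and the protein LARP1 set how strongly they are translated. The mammalian genome also holds many processed copies of these genes, most of them pseudogenes, which share sequence with the parent mRNAs.

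The start of a few of these genes is shown because such a tract is a known feature of the family's mRNAs. RefSeq (GRCm38.p6) promoters were matched for 64 of the 86 genes. Each line gives 35 bases on the gene's strand, 10 before the annotated start and 25 from it on, with the pyrimidine tract in capitals (a C and at least 4 further C or T, beginning within 10 bases of the start). The first 5 are genes with a tract in this window whose labelled-knockout and Tcf7+/+ libraries did not overlap in PP, described further on. Rps6 and Rpl38 have a tract across the start. Rpl13 and Rplp0 have none in this window, though their libraries did not overlap in PP either.
Rpl13a, chr7:45128721-45128755, minus strand: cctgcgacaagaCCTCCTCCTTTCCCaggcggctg
Rpl35, chr2:39005107-39005141, minus strand: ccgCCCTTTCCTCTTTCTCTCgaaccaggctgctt
Rpl18, chr7:45718061-45718095, plus strand: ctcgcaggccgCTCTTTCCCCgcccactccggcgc
Rps9, chr7:3704031-3704065, plus strand: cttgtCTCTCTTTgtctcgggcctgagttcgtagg
Rps27, chr3:90213624-90213658, minus strand: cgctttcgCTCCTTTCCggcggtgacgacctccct
Rps6, chr4:86857343-86857377, minus strand: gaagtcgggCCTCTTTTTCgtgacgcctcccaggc
Rpl38, chr11:114668570-114668604, plus strand: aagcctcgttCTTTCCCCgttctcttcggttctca
Rpl13, chr8:123102340-123102374, plus strand: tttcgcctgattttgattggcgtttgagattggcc
Rplp0, chr5:115559457-115559491, plus strand: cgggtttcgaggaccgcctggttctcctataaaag

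Exactly at the annotated start, such a tract stood in 13 of 64 ribosomal protein promoters (20.3%), against 670 of 27025 promoters of all genes (2.48%) and 0 of 69 of mitochondrial ribosomal protein genes. The 13 include Rpl35, Rpl38, Rps6 and Rps27 above. Allowing the tract to begin within 10 bases raised the shares to 59.4% and 30.8%, and to 43.5% for mitochondrial ribosomal protein genes. A longer tract of a C and at least 7 pyrimidines in that window was found in 34.4% of ribosomal protein promoters. It was in 8.03% of all and in 7.25% of mitochondrial ribosomal protein genes. The letters CCGGAAG, the core bound by ETS factors, were sought on either strand from 250 bases before to 50 from the start. They stood in 25 of 64 promoter windows (39.1%), against 9.11% of all and 20.9% of the genes tested here. The share was near that of mitochondrial ribosomal protein genes, at 24 of 69 (34.8%). The letters CTTTGAT, a TCF/LEF core, were in 0 of 64 and in 3.75% of all windows of this length. They are rare in general, in 2.70% of the genes tested here and 0 of 69 mitochondrial ribosomal protein genes. These are matches of letters only; annotated starts can lie a few bases from the real ones.

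Values are the authors' read counts scaled by gene length and library size (RPKM), deposited as log2 of RPKM + 1. RPKM is per length, so levels of different genes can be set side by side. It is also a share of each library, so a gene can fall because others rise. In bulk RNA, moreover, fewer cells of a type and less RNA per cell cannot be told apart. By the steps between low values, the deepest library had about 1.15 times the reads of the shallowest; the absolute depth depends on the gene lengths used and is not stated. LTi genes were present in all 8 libraries: Il7r at 206 to 454 RPKM and Id2 at 769 to 2024. Of the 3 genes of the sort's excluded receptors, Ncr1 (NKp46) was listed at 0 in all. Klrb1c (NK1.1) was at 32.8 RPKM in the first Tcf7+/+ PP library and 8.42 in the second labelled-knockout PP library, and Klrg1 at 10.7 in the first Tcf7+/+ LP library; elsewhere both were under 0.2. Tcf7 itself was not lower where it was labelled as deleted. In PP it stood at 243 and 85.4 RPKM in Tcf7+/+ and at 355 and 337 in the labelled-knockout libraries, and in LP at 229 and 246 against 237 and 215. A value over the whole gene need not show the loss of some exons, so genotype is written here as labelled. Libraries also differed in 2 large gene groups. Immunoglobulin genes held 2.81 to 6.38% of summed RPKM in PP and 10.3 to 17.1% in LP. The 15 mitochondrially encoded genes held 13.4 and 13.6% in the labelled-knockout PP libraries and 3.06 to 5.06% in the other 6.

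Ribosomal protein genes ranged over almost the whole scale of expression. Of the 86, 84 reached 1 RPKM in at least 2 libraries and were tested. The other 2, Rpl10l and Rpl3l, known as paralogs of testis and of muscle, were at or near 0 in every library. The median member stood at 89.7 RPKM, against 11.9 for the other genes tested. A mean of at least 100 RPKM was reached by 42 members, 34 lay between 10 and 100 and 8 below 10. The dot plot by gene shows a smooth upper panel and a ragged lower one.

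**Figure D1:**
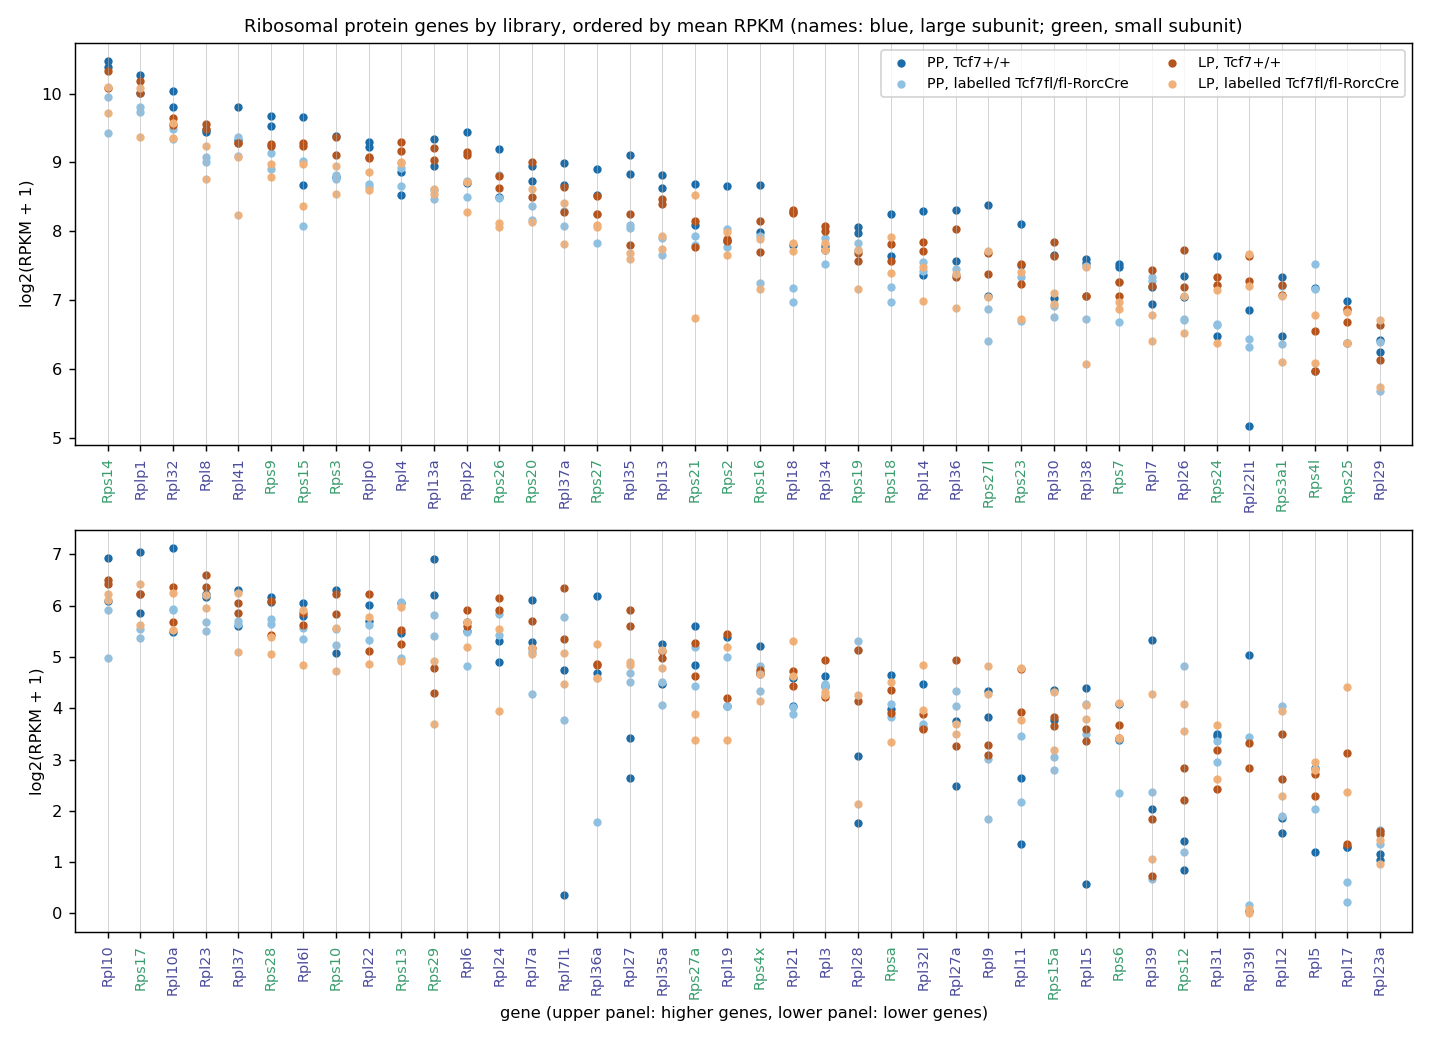
Each column is a ribosomal protein gene, ordered by mean RPKM, for all but a few of the genes tested; each dot is 1 of the 8 libraries on a log2(RPKM + 1) axis, coloured by group. The genes of the upper panel keep their 8 dots close together, while 2 low genes, Rpl7l1 and Rpl39l, spread over 5 log2 units or more.

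The highest member was Rps14, a small-subunit protein, at 1422 and 1345 RPKM in Tcf7+/+ PP, 687 and 990 in labelled-knockout PP, 1078 and 1291 in Tcf7+/+ LP and 1090 and 846 in labelled-knockout LP. Rplp1, an acidic protein of the stalk that recruits elongation factors, followed with a mean of 993, then Rpl32 with 784, Rpl8 with 620 and Rpl41 with 604. The lowest tested members were Rpl23a with a mean of 1.57 RPKM, Rpl17 with 4.67, Rpl5 with 4.84, Rpl12 with 7.08 and Rpl39l with 7.15. Rpl5 and Rpl11, which with 5S RNA bind and inhibit Mdm2, are needed in every ribosome. Yet Rpl5 was between 1.28 and 6.74 RPKM and Rpl11 between 1.55 and 26.6. Since these proteins are used in near-equal numbers, an RPKM here is not a measure of protein.

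Part of this range moves with how much of a gene's sequence is its own. For 85 members the share of 100-base words in the GENCODE M21 transcripts that occur in no other gene was counted, with a median of 75.3%. The 6 members under 20% had a median level of 20.3 RPKM, the 44 between 20 and 80% one of 63.1, and the 35 with at least 80% one of 172. Across 83 of the genes tested, which share the same libraries, Spearman's rho of level and unique share was 0.35, and of level and number of other genes sharing a word -0.49. Rps6, the S6 kinase target, had 16.4% unique words and stood at 4.10 to 16.2 RPKM, while the row Rps6-ps4 held 212 to 479, between 18 and 51.8 times as much. Likewise the retrocopy Rps27rt (1144 to 1967 RPKM) exceeded Rps27 (225 to 480) by 4.06 to 7.38 times, and Rpl37rt (358 to 1201) exceeded Rpl37 (33.5 to 78.0) by 8.98 to 15.4 times. The sources used here do not say how reads that match several genes were counted, so the levels of such genes and of their copies are uncertain.

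**Figure D2:**
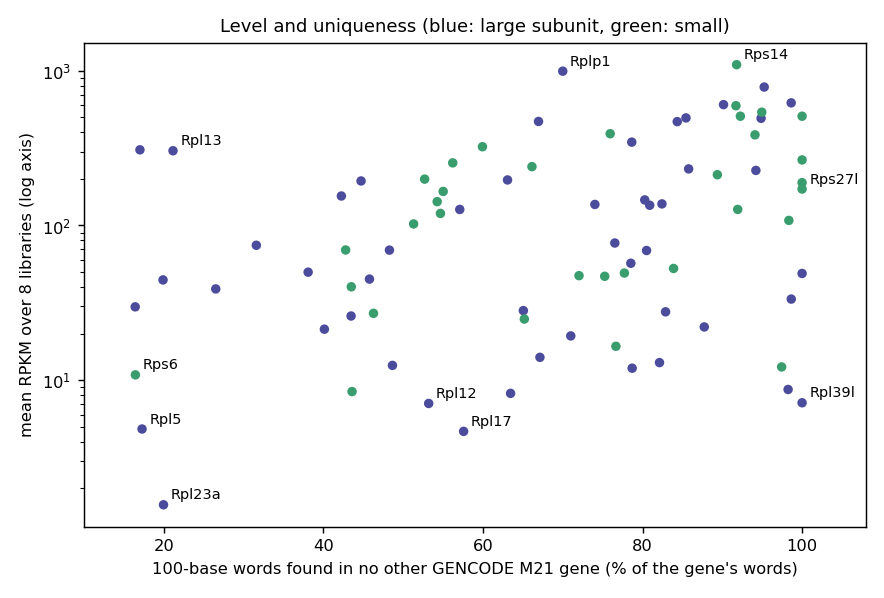
Each dot is a ribosomal protein gene, with the percent of its 100-base words found in no other gene on the horizontal axis and its mean RPKM on a log vertical axis. Genes with over 80% unique words mostly lie above 10 RPKM, with a median of 172, and Rps6, Rpl5 and Rpl23a lie at the lower left.

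Among libraries the high members were steady. For members of at least 100 RPKM the highest library exceeded the lowest by 2.23 times at the median, against 4.74 times for the 918 other genes at that level. Among the narrowest, and named after its values were seen, was Rpl34, from 183 to 270 RPKM. The widest were low: Rpl7l1 (0.28 to 80.9), a paralog with a part in ribosome biogenesis, Rpl39l (0 to 32.0), Rpl39 (0.59 to 39.2), Rpl36a (2.43 to 72.1) and Rpl17 (0.16 to 20.3). As a description over 8 libraries, the median correlation between 2 members was 0.23, between 2 members of at least 100 RPKM 0.45 and between 2 of the other genes at that level 0.03; all pairs share the same libraries.

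Summed over both subunits, ribosomal protein genes held a smaller share of RPKM in the labelled-knockout libraries of both tissues. In PP the share was 3.39 and 3.20% in Tcf7+/+ and 2.37 and 2.41% in the labelled knockouts. In LP it was 3.17 and 2.95% against 2.78 and 2.14%. The 2 genotypes did not overlap in either tissue, and the gap between the labelled-knockout LP libraries was the widest within a group. The means were 3.30% ± 0.13 and 2.39% ± 0.02 in PP and 3.06% ± 0.16 and 2.46% ± 0.45 in LP (SD, n = 2 each).

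Both subunits shared in it. The large subunit held 1.83 and 1.68% against 1.29 and 1.28% in PP, and 1.77 and 1.67% against 1.52 and 1.18% in LP. The small subunit held 1.56 and 1.52% against 1.08 and 1.13% in PP, and 1.40 and 1.28% against 1.25 and 0.96% in LP. Their ratio, large over small, was 1.10 to 1.20 in PP and 1.22 to 1.31 in LP, so the tissues did not overlap in it. By genotype it overlapped in PP and was lower in the labelled knockouts in LP (1.22 and 1.23 against 1.26 and 1.31). With immunoglobulin and mitochondrially encoded genes out of the total, the share was still lower in the labelled knockouts, at 3.73 and 3.55% against 2.83 and 2.88% in PP and 3.74 and 3.70% against 3.28 and 2.53% in LP.

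**Figure D3:**
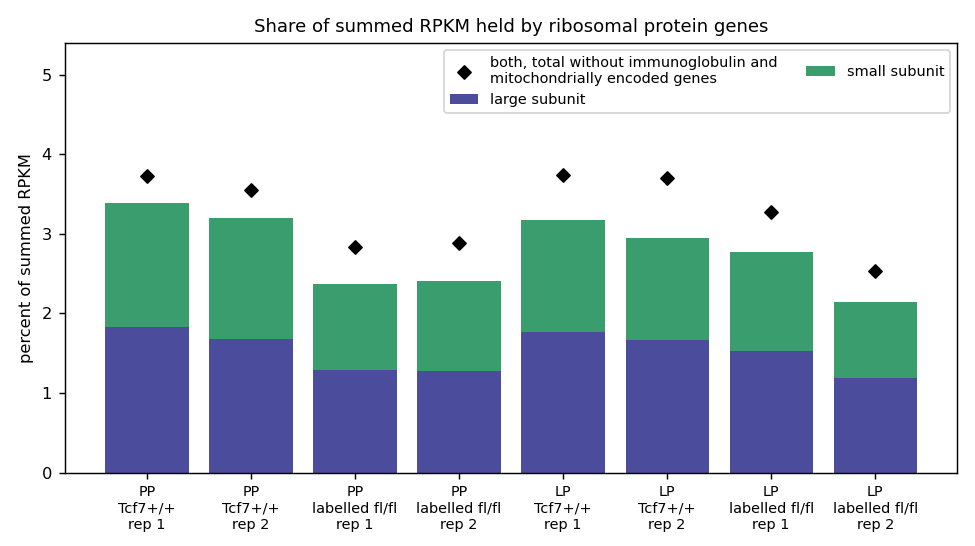
Bars give each library's percent of summed RPKM in large-subunit (blue) and small-subunit (green) genes, stacked from 0; diamonds give both together when immunoglobulin and mitochondrially encoded genes are left out of the total. All 4 labelled Tcf7fl/fl-RorcCre libraries stand below the Tcf7+/+ libraries of their tissue, the second LP one lowest at 2.14%.

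Gene by gene, the first question was what the labelled loss of Tcf7 went with in each tissue. No single ribosomal protein gene passed limma's test in PP, where 0.36% of the 10541 genes tested did (0 of 84 members at an adjusted p under 0.05). At an unadjusted p under 0.05, 2 were higher and 10 lower, against 7.98 and 3.42% of all genes. The estimates nevertheless leaned one way. The log2 fold change was negative for 67 of 84 members (79.8%), against 42.9% of all genes, with a median of -0.41 beside 0.16 for all genes. In 41 members (48.8%) both labelled-knockout libraries lay below both Tcf7+/+ libraries, against 14.8% of all genes and 26.4% of the other genes of at least 100 RPKM; in 7 (8.33%) both lay above, against 22.7% of all genes. Rescaled by median of ratios, 66 members (78.6%) lay wholly below in PP against 25.5% of all genes, and the median was -0.97 beside -0.07. In the deposited scaling the medians of the subunits were -0.38 for the large and -0.42 for the small.

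Rpl13, a large-subunit protein, had the smallest p in PP. It stood at 395 and 450 RPKM in Tcf7+/+ and at 239 and 200 in the labelled knockouts, without overlap. Its log2 fold change was -0.95 ± 0.25 (SE; adjusted p = 0.200). Rpl35 stood at 456 and 550 against 265 and 273 RPKM, a log2 fold change of -0.90 ± 0.28 (adjusted p = 0.254), and Rpl18 at 221 and 310 against 143 and 125, one of -0.97 ± 0.30 (adjusted p = 0.256). Both also had groups apart. Rpl35 and Rpl13 have only 17 and 21.1% unique words, Rpl18 has 85.8%.

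A few low members went the other way in PP. Rpl28 was at 7.45 and 2.41 RPKM in Tcf7+/+ and 38.6 and 34.1 in the labelled knockouts, a log2 fold change of 2.80 ± 1.04 (adjusted p = 0.350). Rpl27 was at 9.64 and 5.21 against 22 and 24.8 RPKM, one of 1.58 ± 0.67 (adjusted p = 0.435). For Rpl7l1, with 25.7 and 0.28 against 12.7 and 54.1 RPKM, the groups overlapped (2.23 ± 1.47, adjusted p = 0.693).

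In LP 0 of 84 members passed the limma test, where 0.0285% of all genes did; at an unadjusted p under 0.05, 0 were higher and 2 lower, against 1.96 and 3.31% of all genes. Again 67 of 84 estimates were negative, against 53.5% of all genes, with a median of -0.32 beside -0.06. In 34 members (40.5%) the labelled knockouts lay wholly below, against 20.3% of all genes and 20.04% of the other genes of at least 100 RPKM; in 5 (5.95%) they lay wholly above, against 15.3% of all genes. The median rests on the second labelled-knockout library. Without it the median was -0.12, as for all genes (-0.13), and 50 members were negative; without the first it was -0.53, beside -0.01 for all genes, with 73 negative. With the first labelled-knockout library alone, 45.2% of the 84 members lay below both Tcf7+/+ libraries and 34.5% above both. Those shares were near the 39.9 and 32.05% of all genes. For members of at least 100 RPKM they were 57.1 and 21.4%, against 42.7 and 34.4% of other genes at that level. The share of summed RPKM in the first library, 2.78%, is below both Tcf7+/+ ones. The scaling mattered as well: rescaled by median of ratios, 14 members (16.7%) lay wholly below in LP against 15.75% of all genes, and the median was -0.10 beside 0.05.

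Rpl13a, known for leaving the ribosome to silence inflammatory mRNAs, stood in LP at 594 and 525 RPKM in Tcf7+/+ and 391 and 373 in the labelled knockouts (log2 fold change -0.55 ± 0.23, adjusted p = 0.943). Rpl8, at the catalytic centre, stood at 750 and 715 against 604 and 433 RPKM (-0.52 ± 0.22, adjusted p = 0.945), and Rpl13 at 337 and 353 against 244 and 214 (-0.59 ± 0.25, adjusted p = 0.963). In each the groups were apart. Rpl9, at 8.71 and 7.53 against 27.3 and 18.3 RPKM, and Rps12, at 3.61 and 6.16 against 16 and 10.7, were apart in the opposite direction (adjusted p = 1 for both). Rpl17, at 1.54 and 7.80 against 20.3 and 4.17 RPKM, overlapped.

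**Figure D4:**
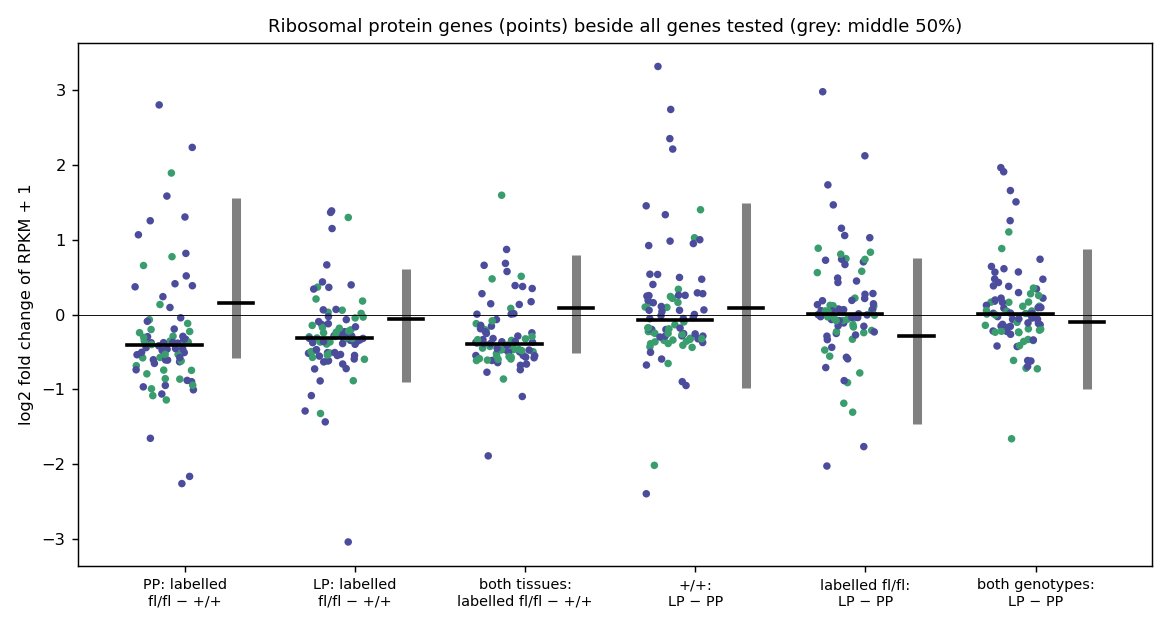
Each dot is the log2 fold change of 1 of 84 ribosomal protein genes (blue large, green small subunit) in 6 comparisons, with the median as a black line; the grey bar and line beside them are the middle 50% and the median of all 10541 genes. In the 3 genotype comparisons the members' median lies at -0.41, -0.32 and -0.39, below that of all genes.

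The PP and LP comparisons use separate libraries, so their estimates can be set side by side. In 57 of 84 members both were negative, against 23.4% of all genes, and in 7 both were positive. Of the 42 members of at least 100 RPKM, 37 were negative in both, against 286 of 918 other genes of that level (31.2%). The size of the difference did not run together in the 2 tissues: across the 84 genes Pearson's r of the 2 estimates was -0.16 and Spearman's rho -0.05, as a description.

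**Figure D5:**
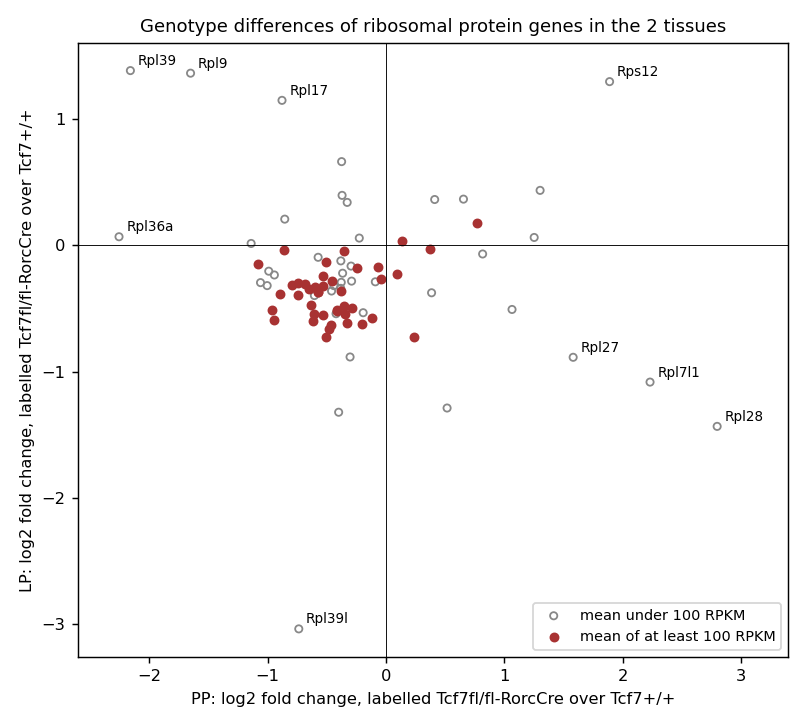
Each dot is 1 ribosomal protein gene, with its genotype log2 fold change in PP on the horizontal and in LP on the vertical axis; filled dots have a mean of at least 100 RPKM. The filled dots gather in the lower left quadrant (37 of 42), and the genes far from it, such as Rpl28, Rpl9 and Rpl39, are open dots.

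Over both tissues, with tissue in the model, 0 of 84 members passed the limma test, where 0.00949% of all genes did; at an unadjusted p under 0.05, 9 were lower and 0 higher, against 2.87 and 3.94% of all genes. The median was -0.39, beside 0.09 for all genes, and 66 of 84 were negative against 45.8%. In 7 members (8.33%) all 4 labelled-knockout libraries lay below all 4 Tcf7+/+ libraries, against 1.24% of all genes, and in 0 above, against 1.66%. They include Rpl13, Rpl13a, Rps9, Rpl8, Rplp0 and Rps27; Rps9 and Rps27 were named after their values were seen. All 7 are from the 42 members of at least 100 RPKM. Of the 5 with a matched promoter, 3 have a tract near the start (Rpl13a, Rps9 and Rps27), against 59.4% of all members with a matched promoter.

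Rpl13 had a log2 fold change of -0.77 ± 0.22 over both tissues, Rpl13a one of -0.58 ± 0.19 and Rpl18, whose groups overlapped across tissues, one of -0.74 ± 0.26 (limma adjusted p = 0.709 for each). Rplp0, which anchors the stalk, stood at 631 and 599 RPKM in Tcf7+/+ PP and 533 and 538 in Tcf7+/+ LP. In the labelled knockouts it was at 409 and 399 in PP and at 388 and 466 in LP. Rps9, at the mRNA entry side of the small subunit, was at 813, 735, 604 and 613 RPKM in the 4 Tcf7+/+ libraries and at 480, 562, 505 and 441 in the labelled knockouts. The gap between the lowest of one and the highest of the other was small in both genes. Among members with a positive estimate, p was smallest for Rps12 (1.59 ± 1.03) and Rps4l (0.48 ± 0.40), both with overlapping groups.

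Whether the genotype difference itself differed between tissues was tested as an interaction, LP minus PP. For 0 of 84 members it passed the limma test, where 0.0285% of all genes did; at an unadjusted p under 0.05, 1 was higher and 2 lower, against 2.38 and 6.37% of all genes. Those of smallest p were Rpl28 (-4.23 ± 1.47, adjusted p = 0.444), Rpl27 (-2.47 ± 0.94, adjusted p = 0.499) and Rpl7 (-0.96 ± 0.49, adjusted p = 0.673), with negative estimates, and Rpl9 (3.01 ± 1.27, adjusted p = 0.568), Rps18 (0.83 ± 0.51, adjusted p = 0.717) and Rpl36a (2.32 ± 1.51, adjusted p = 0.726) with positive ones. The members' median was 0.06, beside -0.39 for all genes; for members of at least 100 RPKM it was 0.04, beside 0.07 for the other genes at that level.

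Between the tissues the members' own medians were small in the deposited scaling, but in the labelled knockouts they stood above that of all genes. In Tcf7+/+ libraries LP minus PP gave 0 of 84 members past the limma test, where 2.13% of all genes passed; at an unadjusted p under 0.05, 3 were higher and 3 lower, against 9.78 and 7.17% of all genes. The median was -0.08, beside 0.09 for all genes. LP lay wholly above PP in 16 members (26% of all genes) and wholly below in 17 (21.4% of all genes). In the labelled knockouts 0 of 84 passed, where 2% of all genes did, with 1 higher and 1 lower at an unadjusted p under 0.05 against 5.76 and 8.96%. The median was 0.004 beside -0.29. LP lay wholly above in 19 (17.5% of all genes) and wholly below in 13 (28.1% of all genes). Rescaled by median of ratios the members leaned in opposite directions in Tcf7+/+ and in the labelled knockouts. In Tcf7+/+ 66 of 84 were negative and 44.05% lay wholly lower in LP, against 26.8% of all genes. In the labelled knockouts 12 were negative and 46.4% lay wholly higher, against 24.4% of all genes.

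Rpl27 came nearest to the threshold in Tcf7+/+ cells. It was at 9.64 and 5.21 RPKM in PP and at 59.5 and 47.5 in LP, without overlap, with a log2 fold change of 2.74 ± 0.67 (limma adjusted p = 0.0972). In the labelled knockouts it was at 22 and 24.8 in PP and 28.9 and 27.8 in LP. Rpl35 was lower in LP, with 304 and 221 against 456 and 550 RPKM (-0.95 ± 0.28, adjusted p = 0.146), and Rps29, a zinc-binding protein of the small subunit, was at 18.7 and 26.7 against 72.9 and 119 (-2.01 ± 0.67, adjusted p = 0.189). In the labelled knockouts Rpl17 had the largest higher estimate (20.3 and 4.17 against 0.53 and 0.16 RPKM, 2.97 ± 1.17, adjusted p = 0.304).

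Over both genotypes 0 of 84 members passed between tissues, where 4.33% of all genes did; at an unadjusted p under 0.05, 3 were higher and 3 lower, against 8.6 and 10.8%. Rps29 had means of 21.7 RPKM in LP and 72.2 in PP (-1.66 ± 0.52, adjusted p = 0.111). Of the 84, 5 lay wholly higher in LP (6.54% of all genes) and 1 wholly lower (7.05%). The 5 were Rpl22l1, Rpl11, Rpl27, Rpl17 and Rpl4 and the 1 was Rps29.

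Among paralogs that can stand in for a ribosomal protein, 1 stood apart by tissue. Rpl22l1, whose product can replace Rpl22 in ribosomes, was at 115 and 34.9 RPKM in Tcf7+/+ PP and 85.6 and 79.0 in labelled-knockout PP. In LP it was at 154 and 199 and at 202 and 146. All 4 LP libraries lay above all 4 PP libraries (1.25 ± 0.41 on the log2 scale over both genotypes, limma adjusted p = 0.128). Rpl22 itself ranged from 28.3 to 73.5 RPKM in no order by tissue. The ratio of Rpl22l1 to Rpl22 was 0.69 to 2.02 in PP and 2.70 to 5.17 in LP. That of Rps27l, a p53 target, to Rps27 was 0.28 to 0.91 with the groups overlapping. Rps27l, at 332 and 133 RPKM in Tcf7+/+ PP, was 116 and 83.7 in the labelled knockouts there. Rpl39l exceeded 1 RPKM in 4 of the 8 libraries (32.0 in the second Tcf7+/+ PP, 9.85 in the second labelled-knockout PP, 6.17 and 8.97 in Tcf7+/+ LP) and was under 0.2 in the others. Rps4l was at 61.3 to 183 RPKM and the X-linked Rps4x at 16.7 to 36.2.

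Of the other members with known roles beyond the ribosome, Rpsa, also a laminin receptor, was at 9.09 to 24.3 RPKM, and Rps27a, made as a fusion with ubiquitin, at 9.37 to 47.5. Rplp2, the partner of Rplp1 in the stalk, was at 311 to 698 RPKM. In PP its groups overlapped (698 and 416 against 361 and 423) and in LP they did not (551 and 571 against 419 and 311).

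Other parts of the translation machinery were read from lists. Of 3 further ribosome components, Fau, which encodes a small-subunit protein as a fusion, was at 433 and 424 RPKM in Tcf7+/+ PP, 293 and 318 in labelled-knockout PP, 421 and 456 in Tcf7+/+ LP and 386 and 248 in labelled-knockout LP. Its groups were apart in both tissues (average log2 fold change -0.49 ± 0.22, adjusted p = 0.726). Of 7 elongation factor genes 0 passed in any comparison; their median was -0.39 in PP and -0.44 in LP by genotype. For 21 other mRNAs known to carry TOP tracts the medians were -0.41 and -0.38, with 0 called.

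Of 35 initiation factor genes 0 passed by genotype (medians 0.09 in PP and -0.02 in LP). Over both genotypes 1 of the 35, Eif1, was higher in LP than in PP, where 4.33% of all genes passed. Eif1 went from 256 to 565 RPKM (1.15 ± 0.21, limma adjusted p = 0.0135). Of 63 ribosome biogenesis genes tested 0 passed in any comparison (medians -0.25 in PP and -0.41 in LP by genotype). Of 24 regulators of ribosomal protein synthesis 0 passed by genotype. Between tissues 1, Cnbp, rose in LP, where 2.13% (Tcf7+/+) and 2% (labelled knockouts) of all genes passed. Cnbp, a zinc-finger protein that binds TOP mRNAs, was at 1630 RPKM in LP against 619 in PP in Tcf7+/+ (1.39 ± 0.17, adjusted p = 0.0125) and 1635 against 467 in the labelled knockouts (1.81 ± 0.17, adjusted p = 0.00684). Myc, which drives ribosomal protein genes, was at 0.03 to 0.07 RPKM in the 4 Tcf7+/+ libraries. In the labelled knockouts it was at 19.9 and 14.5 in PP and 6.97 and 1.27 in LP. That gap did not pass (4.11 ± 0.99 in PP, adjusted p = 0.158; 2.01 ± 0.99 in LP, adjusted p = 1).

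Of 76 mitochondrial ribosomal protein genes tested, 0 passed by genotype, with medians of -0.36 in PP and -0.25 in LP. Between tissues they differed from the cytosolic set in value: the LP minus PP median was -0.73 in Tcf7+/+ and -0.69 in the labelled knockouts. In the latter 3 of the 76 were called and fell, Mrpl18, Mrpl20 and Mrpl34, where 2% of all genes were called. Mrpl34 went from 97.5 to 0.63 RPKM (limma adjusted p = 0.012). Over both genotypes 3 of the 76 fell, Mrpl18, Mrpl34 and Mrpl42, where 4.33% of all genes were called. Of 21 ribosomal protein pseudogenes tested 0 passed, and their genotype medians were -0.59 in PP and -0.43 in LP, in the same direction as their parent genes.

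Other measures were set beside the lower ribosomal protein share, and their part in it was not tested. Mitochondrially encoded genes rose in labelled-knockout PP, with 11 of 15 called, against 0.36% of all genes, and a median log2 fold change of 2. In LP 0 of 15 were called, against 0.0285% of all genes, and the median was 0.31. Genes of at least 1 RPKM numbered 6411 and 6365 in Tcf7+/+ PP and 8103 and 8039 in the labelled knockouts, but 8192 and 8433 against 7437 and 7843 in LP. Summed markers of B and plasma cells (14 genes) were 15086 and 15276 RPKM in Tcf7+/+ PP and 7520 and 7234 in the labelled knockouts. In LP they were 29124 and 43587 against 25392 and 28817, so the sums were wholly lower in the labelled knockouts of both tissues. In PP the sums were mostly Igkc, at 11411 and 11308 RPKM in Tcf7+/+ and 4748 and 4368 in the labelled knockouts. Iglc2 of the same list went the other way in PP, with means of 1.09 and 58.2 RPKM (4.86 ± 0.62, limma adjusted p = 0.0374). Summed markers of T cells (14 genes) were 1231 and 1293 RPKM in Tcf7+/+ PP and 1013 and 1282 in the labelled knockouts, and 698 and 560 against 500 and 734 in LP. Of the 12 tested, 2 lay wholly higher and 3 wholly lower in labelled-knockout PP, against 22.7 and 14.8% of all genes. Their median was 0.07. Among the higher, and named after its values were seen, the T cell receptor subunit gene Cd3e was at 0.18 and 3.82 RPKM in Tcf7+/+ PP and 40.6 and 56.3 in the labelled knockouts. Epithelial markers (15 genes) summed to 336 and 150 RPKM against 610 and 656 in PP. For LP the sums were 128 and 339 against 217 and 448. Epcam of this list overlapped in PP (52.4 and 0.17 against 0.36 and 29.4). Myeloid markers (14 genes) summed to 131 and 116 against 77.8 and 76.2 in PP. In LP they went the other way, with 36.7 and 66.1 against 128 and 142. Stromal and endothelial markers (10 genes) summed to 205 and 78.3 against 83.6 and 145 in PP, and 46.6 and 28.1 against 50.9 and 64.4 in LP. For the 33 tested members with at least 80% unique words, most of which still share some sequence with other genes, the genotype median was -0.48 in PP (29 negative) and -0.34 in LP (27 negative). For the 50 below 80% it was -0.36 (37 negative) and -0.30 (40 negative).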

How the data were processed

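Smart-seq2 libraries of sorted LTi cells, 2 in each of 4 groups, were deposited as 1 table of gene values. Reads were assigned to genes with featureCounts of Subread on mm10, per the submitters' processing notes (the sources used here do not name the aligner, annotation, strand rule or versions). The deposited values are log2 of RPKM + 1, with 0.0001 in place of 0: undoing that log made 86.3% of 51 low values whole reads within 0.1 of a read, and a natural log 2.13% of 94. Of 27179 genes 25275 matched RefSeq (GRCm38.p6) by Entrez identifier and 847 have no deposited symbol.

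The 10541 genes that reached 1 RPKM in 2 or more libraries were tested on log2(RPKM + 1), pseudocount 1, with limma 3.58.1 in R 4.3.3 (moderated, trended variance, two-sided). The fit had 4 group means for single comparisons and the interaction, and an additive model for averages; Benjamini-Hochberg adjustment ran over all genes tested, with 0.05 as the threshold. Fold changes on this scale understate changes of low genes, and with 2 libraries a group the precision is low: the median SE of a member was 0.53 log2 units in a single comparison and 0.32 for members of at least 100 RPKM. The scripts were tested on simulated data.

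The genes and lists were chosen with earlier results of these data known, so lists are described by counts and medians beside all genes, without a test. Named genes were, per comparison, those past the threshold, or else the 3 of smallest p in each direction whose higher group averaged 5 RPKM or more; the 5 highest, 5 lowest and 5 widest; and a fixed set of stalk proteins, extraribosomal proteins and paralogs; retrocopies, Fau and Myc were named with their values known. Same-numbered replicates did not deviate together (correlations -0.02 to 0.01), so they were not paired. Promoter windows are RefSeq's; word counts used GENCODE M21 transcripts. Alternatives were other pseudocounts, filters, scalings, variance models, a replicate block and leaving out each library. Protein sequences of the paralogs were not analysed here. A few genes are not reported here by name; they stay in all counts and medians.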

Additional observations from a re-analysis of the deposited data

How the results depend on the processing

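Under each alternative setting, the number of ribosomal protein genes past the threshold stayed at 0 in every comparison, with 1 exception. Without the filter on low values 1 gene was called between tissues in Tcf7+/+ cells, Rpl27 (adjusted p = 0.0428). Single genes were followed in 42 gene and comparison pairs, those picked by smallest p in each direction. All 618 of their values under alternatives kept their direction, which that choice favours. Genes named only by level, range or role were not followed in this way. The scaling moved the medians most. Under median-of-ratios scaling the median log2 fold change was -0.97 by genotype in PP (all genes -0.07), -0.10 in LP (all genes 0.05), -0.41 between tissues in Tcf7+/+, 0.46 between tissues in the labelled knockouts and 0.85 for the interaction. The average genotype median was -0.56, and members wholly lower in the labelled knockouts numbered 66 in PP (78.6%, all genes 25.5%), 14 in LP (16.7%, all genes 15.75%) and 7 over both (8.33%, all genes 1.49%). Scaled to the total without immunoglobulin and mitochondrially encoded genes they numbered 31 (36.9%, all genes 12.9%), 35 (41.7%, all genes 20.35%) and 7 (8.33%, all genes 1.13%), and the genotype medians were -0.28 in PP and -0.32 in LP. The genotype medians were thus negative under each scaling; those of the Tcf7+/+ tissue comparison (0.10) and the interaction (-0.07) changed sign under the last one.

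Leaving out 1 library at a time gave medians of -0.54 to -0.39 (PP), -0.53 to -0.12 (LP) and -0.52 to -0.31 (average) by genotype. Between tissues they were -0.19 to 0.03 in Tcf7+/+, -0.18 to 0.27 in the labelled knockouts and -0.07 to 0.09 on average, and for the interaction -0.23 to 0.32, the ends of the last without the first and without the second labelled-knockout LP library. With the replicate number as a block the calls stayed at 0. The mean share of summed RPKM in the total without immunoglobulin and mitochondrial genes was 3.64% (Tcf7+/+ PP), 2.86% (labelled-knockout PP), 3.72% (Tcf7+/+ LP) and 2.90% (labelled-knockout LP). With pseudogene and retrocopy rows added to the members, an alternative chosen after seeing the data, the share of the full total was 4.21%, 2.99%, 3.89% and 3.12% (labelled-knockout LP). Restricting medians to members with mostly unique words was likewise chosen after seeing the data. A tract within 10 bases, in place of exactly at the start, was found in 59.4% of promoters.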

Other observations

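The large over small subunit ratio of summed RPKM was 1.17 and 1.10 in Tcf7+/+ PP, 1.20 and 1.14 in labelled-knockout PP, 1.26 and 1.31 in Tcf7+/+ LP and 1.22 and 1.23 in labelled-knockout LP. Rpl36al, an autosomal relative of the X-linked Rpl36a that lies outside the symbol rule, stood at 62.0 to 368 RPKM and exceeded Rpl36a 2.69 to 85.8 times, the highest ratio in the first labelled-knockout PP library, where Rpl36a was at 2.43. Rpl34-ps1, annotated as protein-coding, stood at 330 to 718 RPKM and exceeded Rpl34 1.67 to 3.42 times. The pseudogene rows as a whole held 0.38 and 0.41% of summed RPKM in Tcf7+/+ PP, 0.20 and 0.26% in labelled-knockout PP, 0.34 and 0.29% in Tcf7+/+ LP and 0.27 and 0.22% in labelled-knockout LP, without overlap of the genotypes in either tissue.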
